A study of Homo sapiens with 12 samples.

Results

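The cellular defence against oxidants and electrophiles was followed through 44 genes of the NRF2 pathway in TE10 and Kyse410, established cell lines of human esophageal squamous cell carcinoma. NRF2, encoded by NFE2L2, is a transcription factor that the adaptor KEAP1 normally hands over for degradation; when KEAP1 is modified by oxidants or electrophiles, NRF2 accumulates and, paired with a small MAF protein, binds antioxidant response elements. Its known targets make and recycle glutathione and thioredoxin, store iron, supply NADPH and reduce reactive carbonyls and quinones. The pathway is often active in squamous carcinomas. The genes were taken from a list of NRF2 pathway, glutathione, iron, NADPH and aldo-keto reductase genes. The list was chosen with earlier results of these data known, so its shares set beside those of all genes are descriptive only. All 44 were matched to identifiers in the files, out of 57820 gene identifiers in all.

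The cells carried, after stable infection, either a short hairpin RNA against UHRF1 (shUHRF1) or a scramble control. UHRF1 is a reader of DNA and histone methylation, and the study silenced it to test the migration and invasion of the cells. Polyadenylated RNA was sequenced from 3 libraries in each of 4 groups: TE10 scramble, TE10 shUHRF1, Kyse410 scramble and Kyse410 shUHRF1. The labels give neither the hairpin sequence nor the number of hairpins or clones, so an effect of UHRF1 loss and one of a hairpin or a clone cannot be told apart. Separate cultures are not named for the 3 replicates, so the p-values cover library spread only, and that spread may be technical.

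Libraries held 7857662 to 12005229 reads assigned to genes, and 42.88 to 44.66% of all counted reads fell in no annotated gene. UHRF1 lay at 173, 179 and 184 CPM in TE10 scramble and 82.1, 86.8 and 88.9 CPM in TE10 shUHRF1 libraries. In Kyse410 it lay at 101, 101 and 95.1 CPM with the scramble and 42.1, 43.5 and 41.9 CPM with the shRNA. CPM are reads of a gene in proportion to those of its library after TMM scaling. Every library thus matched its shRNA or scramble label within its line, and UHRF1 does not check the line label. The summed level of 10 squamous epithelial markers was 1239 to 1268 CPM in TE10 scramble, 979.8 to 1043 in TE10 shUHRF1, 658 to 676 in Kyse410 scramble and 854 to 880.2 in Kyse410 shUHRF1. KRT5 had means of 67.4 and 8.05 CPM in TE10 scramble and shUHRF1 and of only 1.14 and 1.37 CPM in the Kyse410 groups. TP63 had means of 100.6 and 62.4 CPM in the TE10 groups and of 97.5 and 107.8 CPM in the Kyse410 groups. CDH1 had means of 51.5 and 118.3 CPM and of 112.6 and 195.4 CPM in the same order, so the 10 markers had no common direction. Of the other cell types, 7 blood markers summed to at most 1.59 CPM. Endothelial markers (4 of 5 matched) summed to 24.8 to 25.2 CPM in Kyse410 scramble and 91.0 to 105 CPM in Kyse410 shUHRF1, of which CDH5 gave nearly all, with means of 24.7 and 95.7 CPM, while VWF, KDR and TEK had means of at most 0.395 CPM in any group. Of 7 fibroblast markers, COL1A1 carried most of the sum (43.9 to 162 CPM), and COL1A2, COL3A1, PDGFRA, DCN and LUM had means of at most 0.216 CPM. PDGFRB had means of 3.6 and 0.736 CPM in TE10 scramble and shUHRF1 and of 5.805 and 3.474 CPM in the Kyse410 groups. Transcripts of the 13 mitochondrially encoded protein genes took 5.32 to 5.42% of gene reads in TE10 scramble and 4.52 to 5.18% in TE10 shUHRF1, and 1.60 to 1.72% in Kyse410 scramble and 2.79 to 2.86% in Kyse410 shUHRF1. The part of these shifts in the results that follow was not tested.

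Most of the listed genes were higher with the UHRF1 shRNA in TE10. Calls were made at 0.05 on the adjusted p of edgeR's quasi-likelihood test, adjusted by Benjamini-Hochberg over all 16060 genes that passed the filter on low counts. Of the 44 genes, 42 passed that filter, and GPX3 and GSTA4 did not. In TE10, 34 of the 42 rose, 2 fell and 6 did not pass, with a median log2 fold change (shUHRF1 over scramble) of 0.46. Over all genes tested in TE10 38.8% were called, 18.8% higher and 20.0% lower, with a median of 0.001. A rise of at least 2-fold was called for 9 of the 42 (21.4%), against 2.14% of all genes tested. These 9 were TXNRD1, GPX2, HMOX1, FTL, AKR1B10, AKR1C2, ALDH3A1, OSGIN1 and TRIM16L.

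Kyse410 had fewer rises and more falls. There 23 of the 42 rose, 8 fell and 11 did not pass, with a median log2 fold change of 0.20. Among all genes tested in Kyse410 49.3% were called, 22.6% higher and 26.7% lower, with a median of −0.025. A rise of at least 2-fold was called for 6 of the 42 (14.3%), against 4.66% of all genes, and these were PRDX1, GPX2, AKR1B10, AKR1C1, AKR1C3 and PIR. In the cross of both lines, 21 genes rose in both, 5 rose in TE10 and fell in Kyse410 (SLC7A11, FTH1, AKR1B1, ABCC1 and OSGIN1) and CBR3 fell in TE10 and rose in Kyse410. The difference between the responses was itself tested, as the log2 fold change in Kyse410 minus that in TE10. It was called for 27 of the 42, with 19 lower and 8 higher in Kyse410, against 38.9% of all genes, 19.9% lower and 19.0% higher. It reached 2-fold for 5 lower genes (TXNRD1, FTL, FTH1, ALDH3A1 and OSGIN1; 2.27% of all genes) and 4 higher ones (GPX2, AKR1C1, CBR3 and PIR; 5.42%).

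**Figure D1:**
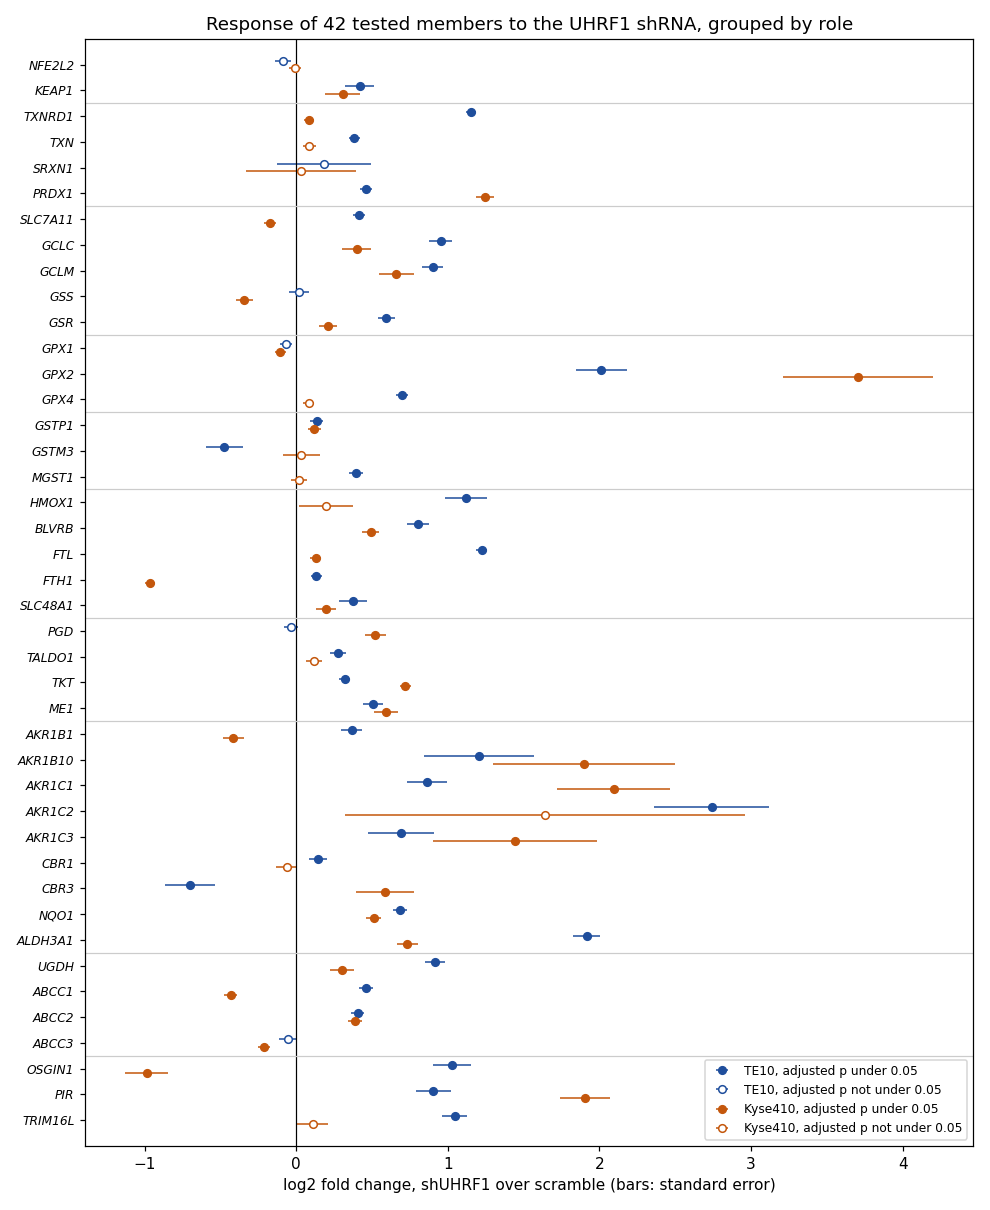
Log2 fold changes (horizontal axis, shUHRF1 over scramble) with standard errors for the 42 tested genes in TE10 (blue) and Kyse410 (orange), grouped by role between grey lines; filled points passed an adjusted p of 0.05. Of the TE10 points 34 are called to the right of 0, against 23 in Kyse410, where FTH1 and OSGIN1 lie farthest to the left.

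The element that NRF2 and small MAF proteins bind has the core TGACNNNGC. It was searched on both strands in RefSeq promoter windows (GRCh38.p14) of 250 bases before to 50 bases after each gene's start. Members on 1 chromosome were left out of the search, and windows were found for 32 of the 44 genes. Of these 32, 11 (34.4%) held a match in at least 1 window. The share was 16.1% of 27305 genes with a window, where no chromosome was left out. The stretches around an upstream match are shown for 6 of these 11, each a gene that rose in both lines. Each is written in the direction of its gene, with the core in capitals, or its reverse complement GCNNNGTCA where the match is on the other strand.
GCLM (chr1:93909436-93909484, minus strand, match beginning 34 bases before the start): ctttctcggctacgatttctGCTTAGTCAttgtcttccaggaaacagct
TXNRD1 (chr12:104286910-104286958, plus strand, 102 bases before one of its starts): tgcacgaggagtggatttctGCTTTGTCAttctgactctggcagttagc
GPX2 (chr14:64942839-64942887, minus strand, 122 bases before the start): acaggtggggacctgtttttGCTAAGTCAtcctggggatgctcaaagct
GSTP1 (chr11:67583726-67583774, plus strand, 66 bases before the start): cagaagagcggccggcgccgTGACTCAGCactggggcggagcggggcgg
ME1 (chr6:83431160-83431208, minus strand, 137 bases before the start): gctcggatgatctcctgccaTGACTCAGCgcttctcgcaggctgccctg
KEAP1 (chr19:10502774-10502822, minus strand, 31 bases before one of its starts): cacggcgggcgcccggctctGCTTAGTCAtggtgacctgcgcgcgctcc
The matches shown for GSTP1 and ME1 also contain TGANTCA, the site of AP-1 factors, and those shown for the other 4 do not. KEAP1, TXNRD1 and ME1 held further matches that are not shown, none of them with TGANTCA. The further matched genes were CBR1, GSTA4, MGST1, PGD and PIR. Genes without a match in their windows rose in both lines too, among them GCLC, FTL and NQO1, and a link of match and response was not tested. A match is a run of letters and not a measured binding site, and a window without one says nothing of elements farther away.

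The transcription factor gene itself did not pass in either line. NFE2L2 lay at 96.0, 94.6 and 95.6 CPM in TE10 scramble, 87.4, 90.9 and 90.9 CPM in TE10 shUHRF1, 214, 215 and 215 CPM in Kyse410 scramble and 209, 221 and 210.3 CPM in Kyse410 shUHRF1. The TE10 shUHRF1 libraries lay just under the TE10 scramble libraries without passing the test, at a log2 fold change of −0.09 (SE 0.052, adjusted p = 0.18), and the Kyse410 groups overlapped, at −0.01 (SE 0.0413, adjusted p = 0.909). KEAP1, the repressor, rose in TE10 from 34.1, 30.9 and 27.7 to 38.9, 39.5 and 45.2 CPM, by 0.42 (SE 0.095, adjusted p = 0.000315) on the log2 scale, with no overlap of the libraries. In Kyse410 it lay at 11.8, 11.5 and 12.1 CPM with the scramble and 14.8, 16.2 and 12.5 CPM with the shRNA, a rise of 0.31 (SE 0.118, adjusted p = 0.0272). This Kyse410 call of KEAP1 was lost without shUHRF1 replicate 1 (adjusted p = 0.0584) or 2 (0.195) and without scramble replicate 1 (0.064) or 2 (0.0682). Neither gene differed between the lines in its response at the threshold (adjusted p = 0.349 for NFE2L2 and 0.596 for KEAP1).

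Among the thioredoxin genes, TXNRD1 changed most in TE10. It encodes thioredoxin reductase, the selenoenzyme that returns thioredoxin to its reduced form with NADPH. TXNRD1 rose in TE10 from 652, 655 and 663 to 1464, 1421 and 1491 CPM, a 2.22-fold rise, at a log2 fold change of 1.15 (SE 0.0346, adjusted p = 1.03e-32). In Kyse410 it lay at 452, 454 and 434 CPM with the scramble and 479, 484 and 458 CPM with the shRNA, a change of 0.09 (SE 0.0353, adjusted p = 0.0422). The Kyse410 change was thus near the threshold, and its adjusted p was 0.0726 and 0.157 without shUHRF1 replicate 1 or 2 and 0.0578 and 0.194 without scramble replicate 1 or 3. The response of TXNRD1 was lower in Kyse410 than in TE10, at a difference of −1.07 (SE 0.0493, adjusted p = 2.83e-24). Thioredoxin itself, TXN, rose in TE10 by 0.38 (SE 0.0385, adjusted p = 5.99e-12) from 381 ± 2.34 CPM (mean ± SD of 3 libraries) and was at 0.09 (SE 0.0423, adjusted p = 0.0825) in Kyse410, where it passed under RLE scaling (adjusted p = 0.0461), with only the groups compared in the fit (0.0452) and without shUHRF1 replicate 2 (0.0466).

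PRDX1, a peroxiredoxin that reduces hydrogen peroxide with thioredoxin, rose in both lines and more in Kyse410. It lay at 435, 432 and 416 CPM in TE10 scramble and 591, 548 and 625 CPM in TE10 shUHRF1, a rise of 0.46 (SE 0.042, adjusted p = 3.15e-13). In Kyse410 it rose from 36.9, 43.0 and 39.4 to 98.5, 91.9 and 92.0 CPM, by 1.248 (SE 0.0598, adjusted p = 3.87e-24), with no overlap of the libraries in either line. The rise was larger in Kyse410 by 0.79 (SE 0.0736, adjusted p = 7.55e-13). With reads of MMACHC, which overlaps PRDX1 on the opposite strand, added to it, the Kyse410 rise was 1.07. SRXN1, which repairs overoxidised peroxiredoxin, had 8 to 29 reads in each library and did not pass in either line (adjusted p = 0.679 and 0.954); 84.95% of its exonic bases are shared on the same strand with a second annotated gene.

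Of the 5 genes of glutathione supply, 4 rose in TE10, and in Kyse410 3 rose and 2 fell. GCLM and GCLC encode the modifier and catalytic subunits of glutamate-cysteine ligase, the first and limiting enzyme of glutathione synthesis. GCLM rose in TE10 from 53.1, 60.3 and 58.6 to 103, 108 and 110.1 CPM, by 0.90 (SE 0.0703, adjusted p = 1.33e-15). In Kyse410 it rose from 10.2, 9.49 and 9.10 to 13.1, 14.8 and 18.1 CPM, by 0.66 (SE 0.115, adjusted p = 3.28e-06). GCLM was therefore higher in each shUHRF1 library than in any scramble library of its line, and the difference between the lines did not pass (log2 −0.24, SE 0.137, adjusted p = 0.162) except without Kyse410 shUHRF1 replicate 3 (adjusted p = 0.0367). GCLC went from 53.6, 54.4 and 61.8 to 108, 109.8 and 112 CPM in TE10, a rise of 0.95 (SE 0.0745, adjusted p = 1.46e-15), and from 20.9, 17.9 and 21.2 to 22.8, 31.8 and 24.2 CPM in Kyse410, a rise of 0.40 (SE 0.0973, adjusted p = 0.000548). Kyse410 shUHRF1 replicate 2 was the highest GCLC library of its group, and without it the Kyse410 value was 0.22 (adjusted p = 0.0651). GSR, which returns oxidised glutathione to its reduced form with NADPH, rose by 0.59 (SE 0.0538, adjusted p = 2.24e-13) in TE10 and by 0.21 (SE 0.0594, adjusted p = 0.00248) in Kyse410.

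The cystine importer SLC7A11, which brings in the cysteine for glutathione, went in opposite directions. It rose in TE10 from 380.3, 371 and 385 to 494, 513 and 507 CPM, by 0.41 (SE 0.0417, adjusted p = 6.52e-12). In Kyse410 it fell from 503, 557 and 497 to 429, 474 and 476 CPM, at a log2 fold change of −0.17 (SE 0.0402, adjusted p = 0.000249). Neither pair of groups overlapped, and the responses differed by −0.59 (SE 0.0579, adjusted p = 3.98e-12). GSS, the second enzyme of glutathione synthesis, was at 0.02 (SE 0.0635, adjusted p = 0.848) in TE10 and fell in Kyse410 from 84.0 ± 1.04 to 66.2 ± 1.29 CPM, a log2 fold change of −0.34 (SE 0.0568, adjusted p = 1.21e-06).

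**Figure D2:**
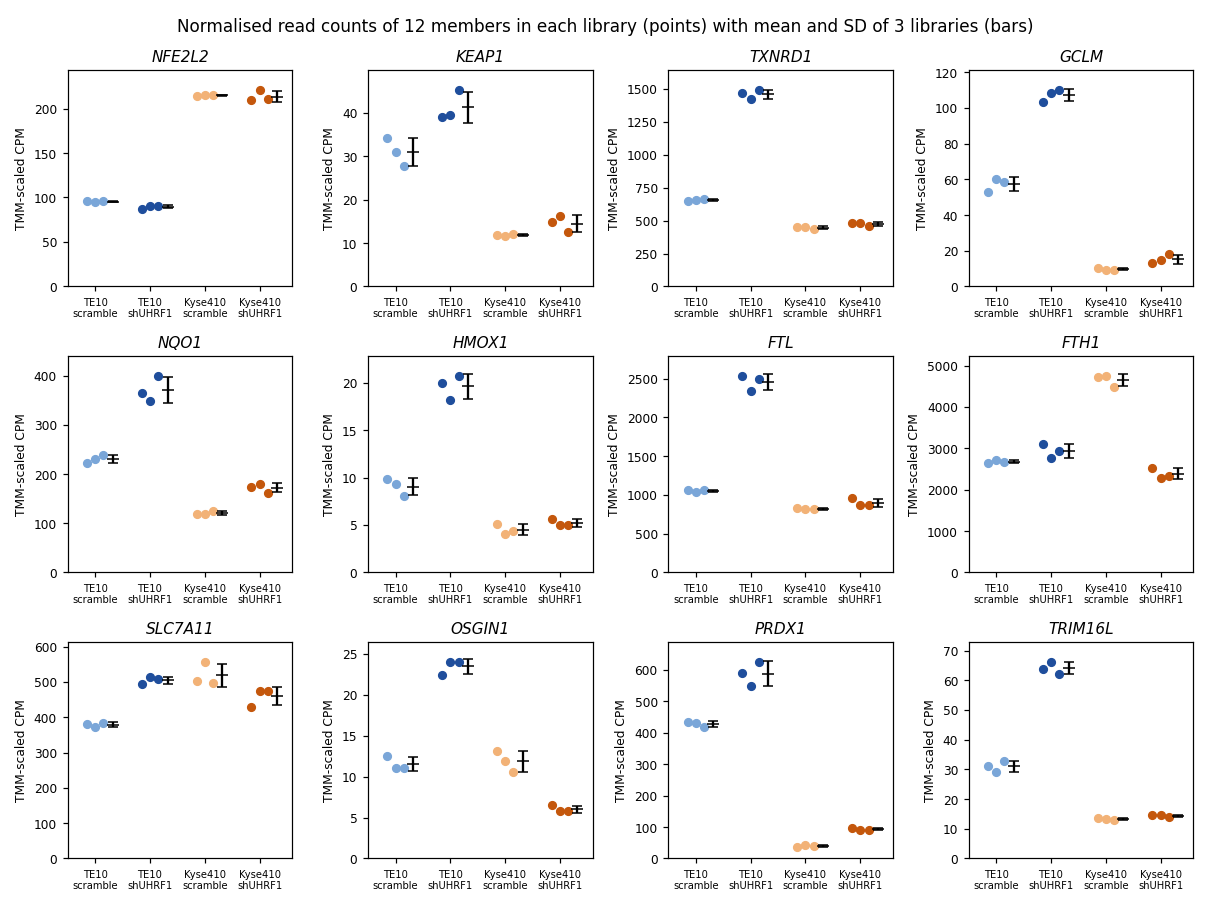
TMM-scaled CPM (vertical axis, from 0) of 12 genes in each of the 12 libraries (points) by group, with the mean and SD of 3 libraries (black bars). TXNRD1, GCLM, HMOX1, FTL, OSGIN1 and TRIM16L stand clearly higher in the TE10 shUHRF1 libraries than in all other groups, whereas FTH1 and OSGIN1 drop in Kyse410 shUHRF1.

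The glutathione peroxidases use glutathione to reduce peroxides, and their members behaved unlike each other. GPX2, an epithelial isoform that reduces hydrogen peroxide, rose in TE10 from 5.43, 4.16 and 5.19 to 19.3, 20.3 and 20.0 CPM, by 2.01 (SE 0.169, adjusted p = 1.71e-14). In Kyse410 it had 2, 1 and 1 reads in the scramble libraries and 15, 28 and 14 reads in the shUHRF1 libraries, a rise of 3.71 (SE 0.496, adjusted p = 1.03e-08). The groups did not overlap in either line, but the Kyse410 fold rests on 4 scramble reads. The larger rise of GPX2 in Kyse410 (log2 1.69, SE 0.594, adjusted p = 0.0197) did not pass in DESeq2 (adjusted p = 0.0602), in limma voom (0.0732), or without Kyse410 shUHRF1 replicate 2 (0.0701) or scramble replicate 2 (0.0582) or 3 (0.0684).

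GPX4, which reduces lipid hydroperoxides in membranes and holds back ferroptosis, rose in TE10 from 204, 203 and 197 to 328, 335 and 315 CPM, by 0.70 (SE 0.0406, adjusted p = 1.89e-20). In Kyse410 it was already at 559, 536 and 552 CPM with the scramble and lay at 598, 567 and 580.4 CPM with the shRNA, a difference of 0.08 (SE 0.0359, adjusted p = 0.0508). That small Kyse410 difference passed under RLE scaling (adjusted p = 0.023), with the replicate block (0.0433), with only the groups compared (0.0115), in DESeq2 (0.0167) and without shUHRF1 replicate 2 (0.0328). GPX1, the abundant cytosolic peroxidase, was at −0.07 (SE 0.0395, adjusted p = 0.162) in TE10 and at −0.10 (SE 0.0367, adjusted p = 0.0148) in Kyse410. The Kyse410 call of GPX1 was lost without a filter on low counts (adjusted p = 0.052), with only the groups compared (0.0514), and without shUHRF1 replicate 2 (0.0582) or scramble replicate 1 (0.0597) or 3 (0.0678). GPX3, the secreted isoform, had 12 reads in each TE10 group, 5 in Kyse410 scramble and 34 in Kyse410 shUHRF1, a Kyse410 ratio of 6.86 (exact interval for counting error 2.67 to 22.5), and did not enter the test.

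Of the 4 glutathione transferases, which join glutathione to electrophiles, 3 were tested. In TE10 2 rose and 1 fell (66.7% and 33.3%, against 18.8% and 20.0% of all genes). In Kyse410 1 rose (33.3%, against 22.6%). MGST1, a membrane-bound family member, rose in TE10 from 155 ± 2.94 to 203 ± 5.75 CPM, by 0.40 (SE 0.0475, adjusted p = 1.01e-09), and was at 0.02 (SE 0.053, adjusted p = 0.769) in Kyse410. GSTP1, the most abundant of the 4 per length, rose by 0.14 (SE 0.0429, adjusted p = 0.0096) in TE10 and by 0.12 (SE 0.0431, adjusted p = 0.0197) in Kyse410. The Kyse410 value of GSTP1 fell to 0.07 (adjusted p = 0.189) without shUHRF1 replicate 1, and the call was also lost without scramble replicate 2 (0.141). GSTM3 was the member that fell in TE10, from 20.4, 18.9 and 18.7 to 13.4, 14.8 and 13.5 CPM (log2 −0.47, SE 0.123, adjusted p = 0.00157), and it lay at 0.03 (SE 0.121, adjusted p = 0.846) in Kyse410. The difference of GSTM3 between the lines (log2 0.51, SE 0.173, adjusted p = 0.0159) was lost without Kyse410 shUHRF1 replicate 2 (adjusted p = 0.0853). GSTA4 had at most 13 reads in any group and was not tested.

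In TE10, where 18.8% of all genes tested rose, all 5 heme and iron genes did. Their summed level went from 3779, 3810 and 3793 CPM in the scramble libraries to 5737, 5215 and 5542 CPM in the shUHRF1 libraries. HMOX1, the heme oxygenase that opens heme and frees its iron, rose in TE10 from 9.82, 9.27 and 8.05 to 20.0, 18.1 and 20.7 CPM, by 1.12 (SE 0.139, adjusted p = 2.29e-09). FTL, the light chain of the iron store ferritin, rose from 1063, 1035 and 1059 to 2534, 2339 and 2495 CPM, a 2.33-fold rise (log2 1.22, SE 0.0356, adjusted p = 3.16e-33). The heavy chain FTH1, which oxidises the iron, stood at 2652, 2711 and 2672 CPM with the scramble and 3095, 2772 and 2941 CPM with the shRNA, a rise of only 0.13 (SE 0.0352, adjusted p = 0.00195). The ferritin chains thus rose to unlike extents in TE10. BLVRB, a reductase of biliverdin and flavins, rose by 0.80 (SE 0.0705, adjusted p = 8.1e-14), and the heme transporter SLC48A1 rose by 0.37 (SE 0.0925, adjusted p = 0.000921).

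In Kyse410 the same 5 genes split, with 3 rises, 1 fall and HMOX1 not passing. FTH1 fell from 4719, 4751 and 4493 to 2536, 2276 and 2342 CPM, a 1.95-fold fall (log2 −0.96, SE 0.0352, adjusted p = 3.16e-29). FTL lay at 834, 813 and 818 CPM with the scramble and 956, 864 and 875 CPM with the shRNA, a rise of 0.13 (SE 0.0356, adjusted p = 0.00212) that was 0.08 without shUHRF1 replicate 1 (adjusted p = 0.043). The summed heme and iron level accordingly went down, from 5696, 5698 and 5448 CPM to 3670, 3320 and 3394 CPM, of which FTH1 was the greater part. HMOX1 was at 0.20 (SE 0.176, adjusted p = 0.37), BLVRB rose from 74.7 ± 3.33 to 105 ± 3.04 CPM (log2 0.49, SE 0.055, adjusted p = 8.27e-11) and SLC48A1 rose by 0.20 (SE 0.0637, adjusted p = 0.00889). Between the lines the responses of FTH1, FTL, HMOX1 and BLVRB differed by −1.10 (SE 0.0497), −1.09 (SE 0.0502), −0.92 (SE 0.225) and −0.31 (SE 0.0897) on the log2 scale, all called. BEST1 covers 62.4% of the exonic bases of FTH1 on the opposite strand and was given 233554 reads over the 12 libraries, against 365965 for FTH1, so the reads of both cannot be told apart. With BEST1 added, FTH1 was at 0.14 in TE10 and −0.98 in Kyse410, and with the reads of its pseudogenes added at 0.13 and −0.97.

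Of the 4 NADPH-supplying enzymes, 3 rose in each line, and 2 responses were called higher in Kyse410. These enzymes belong to the pentose phosphate pathway (PGD, TKT and TALDO1) or convert malate to pyruvate (ME1). TKT rose in TE10 from 578, 573 and 578 to 738, 699.9 and 721 CPM, by 0.32 (SE 0.036, adjusted p = 1.73e-10). In Kyse410 TKT rose from 344, 340.2 and 351 to 592, 562 and 549 CPM, by 0.72 (SE 0.0364, adjusted p = 3.72e-23), which was more than in TE10 by 0.40 (SE 0.0512, adjusted p = 6.98e-09). PGD, which makes NADPH from phosphogluconate, lay at 199.9, 216 and 208 CPM in TE10 scramble and 204, 208 and 198 CPM in TE10 shUHRF1, with overlapping libraries (log2 −0.03, SE 0.0479, adjusted p = 0.629). In Kyse410 PGD rose from 33.3, 29.9 and 33.5 to 48.1, 47.9 and 42.7 CPM, by 0.52 (SE 0.0677, adjusted p = 4.31e-09), a difference between the lines of 0.56 (SE 0.083, adjusted p = 2.42e-07). ME1 rose by 0.51 (SE 0.0638) in TE10 and by 0.59 (SE 0.0779) in Kyse410, with a difference that did not pass (adjusted p = 0.541). TALDO1 rose by 0.28 (SE 0.0499, adjusted p = 1.01e-05) in TE10 and was at 0.12 (SE 0.0531, adjusted p = 0.0656) in Kyse410. It passed there under RLE scaling (adjusted p = 0.04), with the replicate block (0.0494) and with only the groups compared (0.0297).

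The aldo-keto reductases of the AKR1C group reduce ketosteroids, prostaglandins and lipid aldehydes, and their sequences are so alike that reads may be shared or dropped. Of the distinct 50-base stretches of the GENCODE transcripts of AKR1C2, 38.1% also occur in AKR1C1, and of those of AKR1C1, 28.3% occur in AKR1C2, against 4.53% of those of AKR1C3 in any of AKR1C1, AKR1C2 or AKR1C4. AKR1C1 rose in TE10 from 12.2, 17.0 and 14.2 to 28.9, 24.3 and 25.9 CPM, by 0.86 (SE 0.13, adjusted p = 2.76e-07). AKR1C2 had 4, 9 and 8 reads in the TE10 scramble libraries and 51, 38 and 40 in the shUHRF1 libraries, a rise of 2.74 (SE 0.38, adjusted p = 3.88e-08). AKR1C3 went from 5.94, 5.47 and 4.55 to 11.3, 6.90 and 7.43 CPM, a rise of 0.69 (SE 0.219, adjusted p = 0.00951). The AKR1C3 call in TE10 was lost without shUHRF1 replicate 1, the highest library, at 0.47 (adjusted p = 0.142), and without scramble replicate 3 (adjusted p = 0.0629). With the reads of AKR1C1 to AKR1C4 added into 1 feature, the level rose in TE10 from 18.6, 23.5 and 19.6 to 46.7, 36.0 and 38.6 CPM. This summed feature had a log2 fold change of 0.97 (adjusted p = 4.75e-10); AKR1C2 alone was at 2.74.

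Kyse410 had hardly any AKR1C reads with the scramble. AKR1C1 had 3, 5 and 7 reads in the scramble libraries and 26, 24 and 15 in the shUHRF1 libraries, a rise of 2.09 (SE 0.371, adjusted p = 4.26e-06). AKR1C3 had 2, 3 and 4 reads against 10, 7 and 8 (log2 1.44, SE 0.543, adjusted p = 0.0238), a call that was lost without shUHRF1 replicate 1 (adjusted p = 0.0775) or 3 (0.0566) or scramble replicate 1 (0.12). AKR1C2 had 1 read against 4, a shUHRF1 to scramble ratio of 4.03 whose 95% interval of 0.399 to 199 covers counting error only. Every shUHRF1 library was nevertheless above every scramble library in the summed AKR1C feature, at 3.65, 2.54 and 2.49 CPM against 0.488, 0.816 and 1.04 CPM. The summed rise was 1.90 (adjusted p = 9.11e-07), and it exceeded that in TE10 by 0.93 (adjusted p = 0.0264). For AKR1C1 alone the difference between the lines was 1.23 (SE 0.405, adjusted p = 0.0128) and was lost without Kyse410 scramble replicate 1 (0.88, adjusted p = 0.116).

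The AKR1B reductases act on aldehydes and glucose. AKR1B10, a retinal and lipid aldehyde reductase, had 7, 8 and 20 reads in TE10 scramble and 25, 20 and 28 in TE10 shUHRF1, a rise of 1.20 (SE 0.362, adjusted p = 0.0062). In Kyse410 it had 3, 3 and 1 reads against 7, 11 and 9 (log2 1.90, SE 0.602, adjusted p = 0.00721). The shUHRF1 libraries did not overlap the scramble libraries in CPM in either line, at levels of few reads. AKR1B1, the aldose reductase, was more abundant and diverged between the lines. It rose in TE10 from 86.7, 92.8 and 91.0 to 124, 104 and 122 CPM (log2 0.36, SE 0.0665, adjusted p = 1.16e-05) and fell in Kyse410 from 71.7, 68.7 and 69.2 to 60.9, 49.6 and 46.5 CPM (log2 −0.41, SE 0.0705, adjusted p = 2.02e-06), a difference of −0.78 (SE 0.0969, adjusted p = 3.08e-09).

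**Figure D3:**
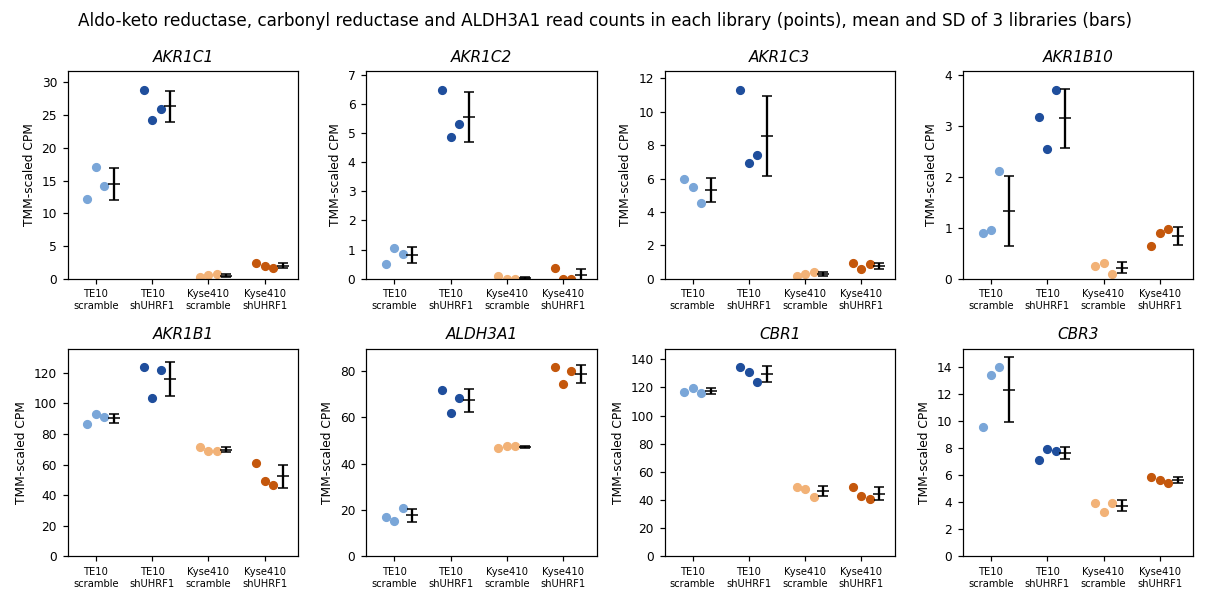
TMM-scaled CPM (vertical axes, from 0, with a scale of their own in each panel) of 5 aldo-keto reductases, ALDH3A1, CBR1 and CBR3 in each library (points), with the mean and SD of 3 libraries (black bars). The AKR1C genes and AKR1B10 are low in Kyse410, at no more than 1.99 CPM on average, and AKR1B1 and CBR3 move in opposite directions in the lines.

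Among the other carbonyl- and quinone-reducing enzymes, NQO1 rose in both lines. NQO1 reduces quinones by a pair of electrons and is a standard readout of NRF2 activity. It rose in TE10 from 223, 229.8 and 239.8 to 366, 349 and 399.7 CPM (log2 0.69, SE 0.0457, adjusted p = 3.92e-18) and in Kyse410 from 119, 119.6 and 125 to 174, 180.3 and 162 CPM (log2 0.51, SE 0.0489, adjusted p = 7.51e-13). The smaller rise in Kyse410 (log2 difference −0.17, SE 0.0669, adjusted p = 0.0326) did not pass without a filter on low counts (adjusted p = 0.0789), nor without TE10 shUHRF1 replicate 3 (0.166), TE10 scramble replicate 1 (0.0987) or 2 (0.0606), Kyse410 shUHRF1 replicate 3 (0.123) or Kyse410 scramble replicate 3 (0.0939). ALDH3A1, an aldehyde dehydrogenase of stratified epithelia, rose in TE10 from 17.2, 15.2 and 20.8 to 71.6, 62.0 and 68.3 CPM, a 3.77-fold rise (log2 1.92, SE 0.0877, adjusted p = 1.01e-24). In Kyse410 it rose from 46.6, 47.4 and 47.6 to 81.4, 74.3 and 80.0 CPM (log2 0.73, SE 0.0684, adjusted p = 2.93e-13), less than in TE10, at a difference of −1.18 (SE 0.113, adjusted p = 1.76e-12). The TE10 shUHRF1 libraries thereby came near the level of the Kyse410 shUHRF1 libraries, which lay above them without overlap.

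The carbonyl reductases CBR1 and CBR3 lie side by side and differed from each other. CBR3 fell in TE10 from 9.56, 13.4 and 14.0 to 7.12, 7.92 and 7.83 CPM (log2 −0.70, SE 0.165, adjusted p = 0.000487) and rose in Kyse410 from 3.98, 3.26 and 3.98 to 5.84, 5.65 and 5.42 CPM (log2 0.58, SE 0.191, adjusted p = 0.00893), with a difference of 1.29 (SE 0.252, adjusted p = 3.88e-05). CBR1 rose in TE10 by 0.14 (SE 0.0582, adjusted p = 0.0483) and was at −0.06 (SE 0.0695, adjusted p = 0.496) in Kyse410. The small TE10 call of CBR1 was lost without a filter on low counts (adjusted p = 0.103), with its opposite-strand partner AP000688.1 added (0.0708), without shUHRF1 replicate 1 (0.0753) or 2 (0.103) and without scramble replicate 1 (0.11), 2 (0.0684) or 3 (0.122).

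Conjugation and export genes rose in TE10 for 3 of 4, and in Kyse410 2 rose and 2 fell. UGDH makes the UDP-glucuronic acid used to conjugate drugs and steroids, and the ABCC transporters carry conjugates out of the cell. UGDH rose in TE10 from 50.1, 52.9 and 49.0 to 99.0, 90.0 and 98.2 CPM (log2 0.92, SE 0.0675, adjusted p = 1.5e-16) and in Kyse410 from 24.8, 23.7 and 23.9 to 27.5, 30.7 and 31.1 CPM (log2 0.30, SE 0.0812, adjusted p = 0.00164), less than in TE10, at a difference of −0.62 (SE 0.106, adjusted p = 4.13e-06). ABCC2 rose by 0.41 (SE 0.0412, adjusted p = 8.49e-12) in TE10 and 0.39 (SE 0.0475, adjusted p = 1.2e-09) in Kyse410, with a difference of −0.02 (SE 0.063, adjusted p = 0.83). ABCC1 rose in TE10 from 158, 153 and 153 to 218, 207 and 215 CPM (log2 0.46, SE 0.0453, adjusted p = 2.93e-12) and fell in Kyse410 from 216, 214 and 217 to 169, 154 and 157 CPM (log2 −0.43, SE 0.043, adjusted p = 2.18e-12), a difference of −0.90 (SE 0.0625, adjusted p = 3.52e-17). ABCC3 was at −0.05 (SE 0.0603, adjusted p = 0.531) in TE10 and fell in Kyse410 at −0.21 (SE 0.0404, adjusted p = 1.77e-05), from 514 ± 17.4 to 444 ± 27.9 CPM.

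The remaining targets included the gene whose responses were farthest apart. OSGIN1, an oxidative stress-induced growth inhibitor, rose in TE10 from 12.5, 11.1 and 11.01 to 22.4, 24.0 and 24.0 CPM (log2 1.03, SE 0.123, adjusted p = 8.58e-10). In Kyse410 it fell from 13.2, 11.9 and 10.6 to 6.48, 5.82 and 5.75 CPM (log2 −0.99, SE 0.139, adjusted p = 3.24e-08). From nearly equal levels in the scramble controls the lines therefore went apart, by −2.02 (SE 0.185, adjusted p = 4.62e-13), the largest difference in size among the 27 called. PIR, an iron-binding nuclear protein of the cupin family, rose in TE10 from 21.4, 15.8 and 16.4 to 35.6, 31.2 and 33.2 CPM (log2 0.91, SE 0.115, adjusted p = 5.07e-09) and in Kyse410 from 3.49, 2.35 and 3.88 to 11.7, 13.4 and 11.6 CPM (log2 1.91, SE 0.166, adjusted p = 2.8e-14), more by 1.001 (SE 0.207, adjusted p = 9.19e-05). TRIM16L rose in TE10 from 31.1, 29.1 and 32.7 to 63.7, 66.2 and 62.2 CPM (log2 1.04, SE 0.08, adjusted p = 6.64e-16) and lay at 13.7, 13.4 and 12.98 CPM with the scramble and 14.5, 14.7 and 14.0 CPM with the shRNA in Kyse410 (log2 0.11, SE 0.104, adjusted p = 0.412). It shares 39.4% of its 50-base stretches with TRIM16, and with the reads of TRIM16 added the TE10 rise was 0.93 (adjusted p = 1.86e-17).

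**Figure D4:**
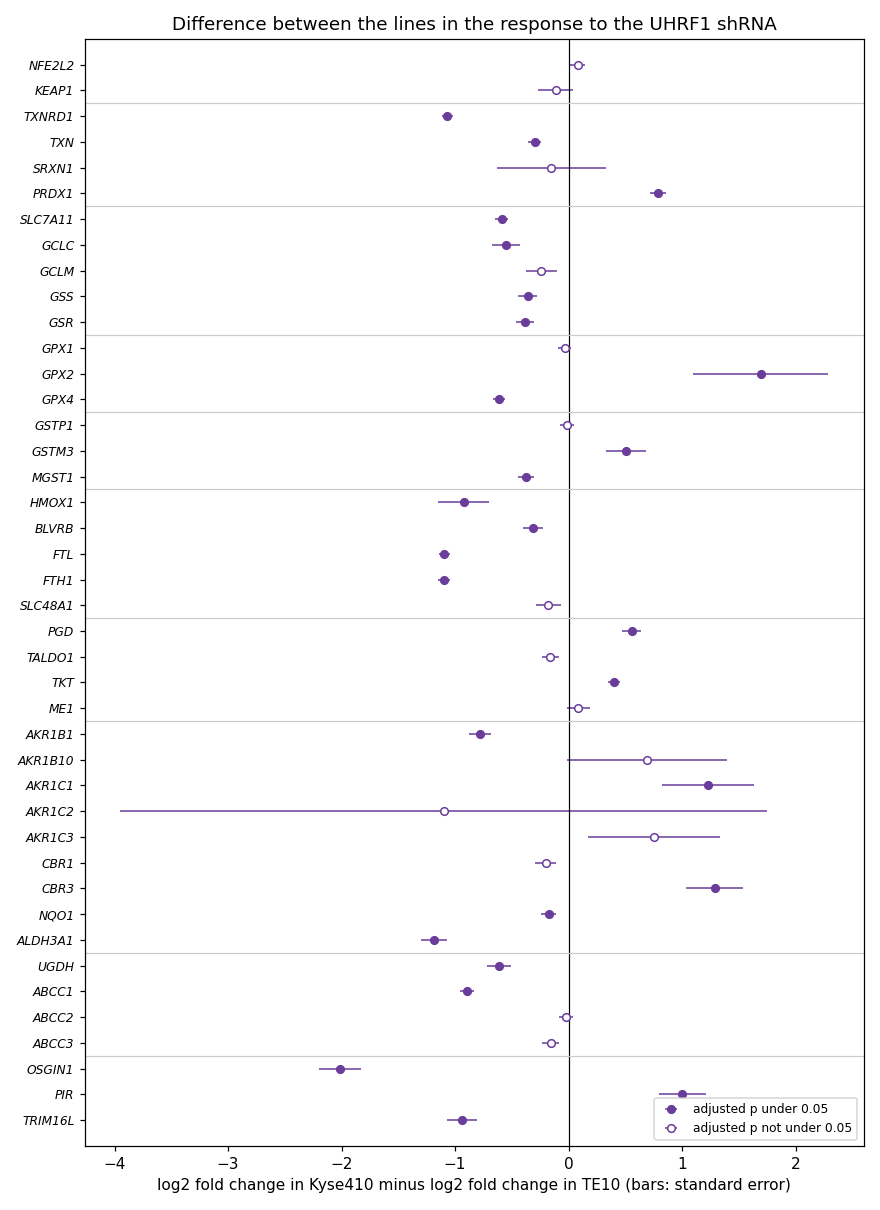
Difference in response between the lines (horizontal axis, log2 fold change in Kyse410 minus that in TE10, with standard errors) for the 42 tested genes, grouped by role between grey lines; filled points passed an adjusted p of 0.05. OSGIN1 is the called gene farthest to the left at −2.02 and GPX2 the called gene farthest to the right at 1.69. AKR1C2, with 5 reads in Kyse410, has the widest bar.

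The lines were also set against each other at baseline, in their scramble controls. Kyse410 had less of most of these transcripts: 30 of the 42 were lower than in TE10, 11 were higher and only OSGIN1 did not pass (log2 0.05, SE 0.129, adjusted p = 0.714), with a median log2 difference (Kyse410 over TE10) of −0.945. Over all genes tested 73.7% were called, 37.1% lower and 36.7% higher, with a median of −0.002. At least 2-fold lower were 19 of the 42 (45.2%), against 12.3% of all genes, and at least 2-fold higher were 6 (14.3%), against 15.8%. The Kyse410 scramble libraries are the controls of the Kyse410 response, and the TE10 scramble libraries those of the TE10 response, so a baseline difference and a response share libraries.

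NFE2L2 and KEAP1 differed in opposite directions between the lines. NFE2L2 was higher in Kyse410 by 1.17 (SE 0.046, adjusted p = 7.17e-29), a 2.25-fold difference, and KEAP1 was lower, at a log2 difference of −1.38 (SE 0.109, adjusted p = 1.66e-16). All 4 thioredoxin genes were lower in Kyse410, as were 37.1% of all genes tested. PRDX1 was at −3.43 (SE 0.0537, adjusted p = 7.56e-47), a 10.8-fold difference, TXN at −1.22 (SE 0.0408), SRXN1 at −1.003 (SE 0.334) and TXNRD1 at −0.56 (SE 0.0352). All 4 genes listed under NADPH supply were lower too. PGD was at −2.69 (SE 0.058, adjusted p = 1.25e-40), ME1 at −1.48 (SE 0.0736), TALDO1 at −0.77 (SE 0.0519) and TKT at −0.74 (SE 0.0367).

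Glutathione genes were divided at baseline. GCLM was lower in Kyse410, at a log2 difference of −2.57 (SE 0.0954, adjusted p = 5.43e-30), and GCLC and GSR lay at −1.50 (SE 0.0896) and −0.82 (SE 0.058). The cystine importer SLC7A11 was higher in Kyse410 at 0.45 (SE 0.0411, adjusted p = 2.57e-14) and GSS was higher at 0.41 (SE 0.059, adjusted p = 2.02e-08). Peroxidases GPX4 and GPX1 were higher in Kyse410, at 1.45 (SE 0.0391, adjusted p = 3.5e-36) and 0.64 (SE 0.0379), whereas GPX2, with 4 reads in Kyse410 scramble against 126 in TE10 scramble, was lower at −5.19 (SE 0.404, adjusted p = 1.17e-16). The 3 tested transferases GSTP1, GSTM3 and MGST1 were lower, at −0.44 (SE 0.0431), −0.59 (SE 0.118) and −0.96 (SE 0.0506).

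After GPX2, the AKR1C reductases had the largest differences in size between the lines among the 42. AKR1C1 lay at 12.2, 17.0 and 14.2 CPM in TE10 scramble and 0.244, 0.51 and 0.663 CPM in Kyse410 scramble, a log2 difference of −4.94 (SE 0.252, adjusted p = 5.43e-24), and AKR1C3 differed by −4.20 (SE 0.38, adjusted p = 2.51e-14). AKR1C2 had 1 read in Kyse410 scramble and 21 in TE10 scramble, a TE10 to Kyse410 ratio of 26.8 (95% interval for counting error 4.31 to 1108). The summed AKR1C feature differed by −4.724 (adjusted p = 3.32e-26). AKR1B10, CBR3, CBR1, NQO1 and AKR1B1 were lower in Kyse410 as well, at −2.59 (SE 0.566), −1.72 (SE 0.174), −1.34 (SE 0.0633), −0.93 (SE 0.0487) and −0.37 (SE 0.0678). ALDH3A1 was the only one of the 9 reductase and dehydrogenase genes that was higher in Kyse410, at 1.40 (SE 0.0888, adjusted p = 3.72e-20).

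Of the heme and iron genes, SLC48A1, BLVRB and FTH1 were higher in Kyse410 at 1.52 (SE 0.0787), 1.12 (SE 0.0659) and 0.80 (SE 0.0352), and FTL and HMOX1 were lower at −0.36 (SE 0.0357) and −0.98 (SE 0.166). ABCC3 was higher in Kyse410 by 2.80 (SE 0.0492, adjusted p = 1.02e-44), a 6.98-fold difference, and ABCC1 by 0.48 (SE 0.0441), while ABCC2 and UGDH were lower at −1.62 (SE 0.0453) and −1.07 (SE 0.0776). PIR and TRIM16L were lower at −2.44 (SE 0.161) and −1.21 (SE 0.0952). The 3 ABCC transporters thus had no common direction.

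**Figure D5:**
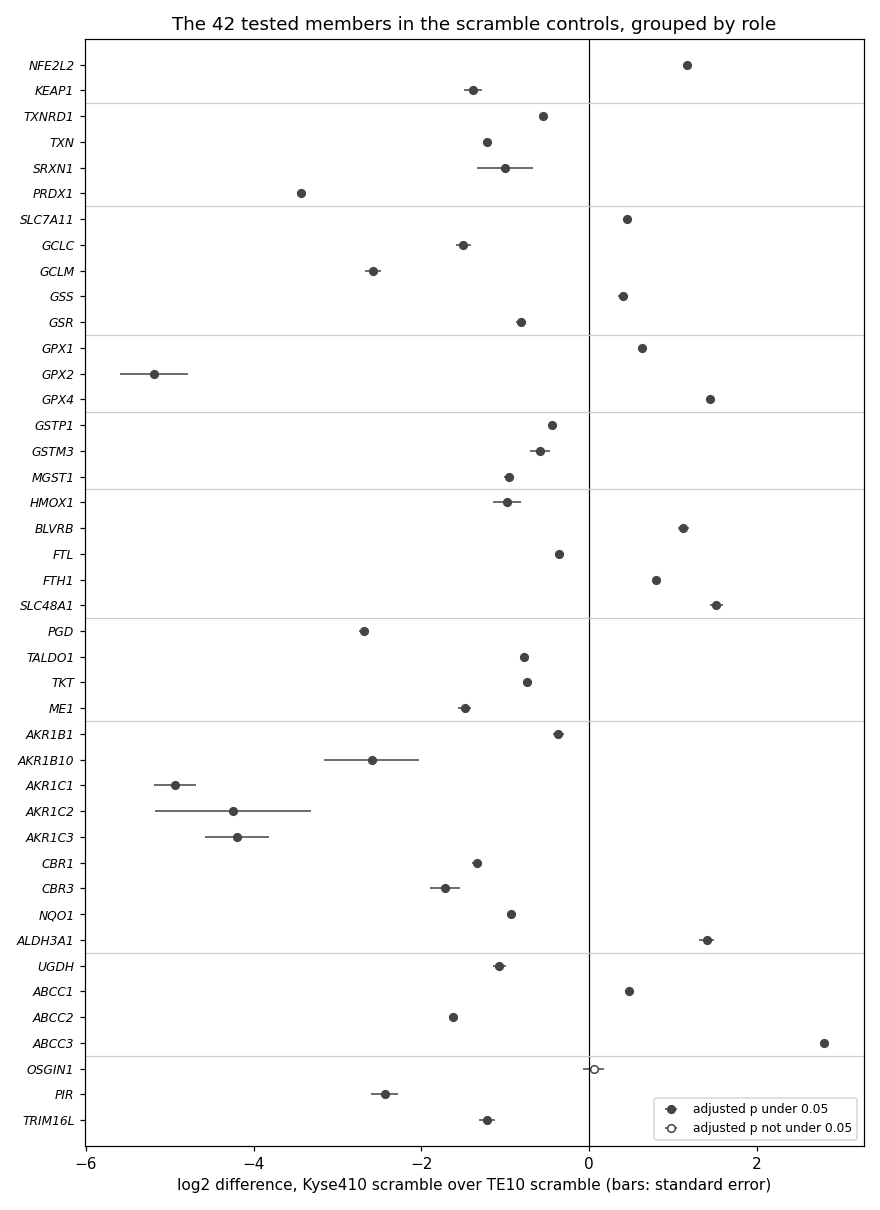
Log2 difference between Kyse410 scramble and TE10 scramble (horizontal axis, with standard errors) for the 42 tested genes, grouped by role between grey lines; filled points passed an adjusted p of 0.05. Of the points 30 are called to the left of 0, where GPX2, AKR1C1, AKR1C2, AKR1C3 and PRDX1 lie farthest, and 11 to the right, with ABCC3 farthest at 2.80.

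Levels of different genes were compared per kilobase of exon (RPKM, CPM divided by the exonic length in GENCODE 29, an annotation of another build than the one of the counts). At baseline FTH1 and FTL were the most abundant of the 44 in both lines, with mean RPKM of 1319 and 1198 in TE10 and 2293 and 936 in Kyse410. In TE10 TXN (333), PRDX1 (281), GPX1 (236) and GSTP1 (181) came next. In Kyse410 the next were GPX1 (366), GPX4 (272), TXN (143) and GSTP1 (133), and PRDX1 was at 26.1. The least abundant genes that were tested were AKR1C2, AKR1B10 and SRXN1 in TE10, and AKR1C2, AKR1C1 and AKR1C3 in Kyse410. In TE10 shUHRF1 the order of the ferritin chains was the reverse, with FTL at 2797 and FTH1 at 1446. The order per length depends on the annotated lengths. It may also depend on reads given to or dropped over overlapping genes, as with BEST1 over FTH1 and the second gene over SRXN1. Such reads were not corrected for here.

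A second list, also chosen with earlier results known, held 72 further genes of the pathway that are not among the 44. Of these, 64 were tested. In TE10 27 of the 64 rose and 11 fell (42.2% and 17.2%), against 18.8% and 20.0% of all genes, with a median log2 fold change of 0.12. In Kyse410 25 rose and 23 fell (39.1% and 35.9%), against 22.6% and 26.7% of all genes, with a median of 0.06. The 16 NRF2 partners and turnover factors had 6 rises and 2 falls in TE10 and 3 rises and 10 falls in Kyse410, and 10 of the 16 responses (62.5%) were lower in Kyse410 and 1 (6.25%) higher, against 19.9% and 19.0% of all genes. The 25 tested genes linked to NRF2 had 13 rises and 3 falls in TE10 and 17 rises and 4 falls in Kyse410. The 12 peroxide and superoxide defence genes had 3 rises and 3 falls in TE10 (25.0% each) and 2 rises and 4 falls in Kyse410 (16.7% and 33.3%), shares near those of all genes. The 11 tested iron and ferroptosis genes had 5 rises and 3 falls and then 3 rises and 5 falls.

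By rule the 2 largest called changes each way were taken in each comparison among genes averaging 5 CPM or more, and some called genes below that level differed by more. In TE10 the cytochrome CYP4F11 rose by 0.83 (SE 0.104, adjusted p = 2.68e-09). ACSL4, which activates arachidonic acid for membrane lipids, fell at −0.90 (SE 0.0621, adjusted p = 1.7e-17) and the taurine transporter SLC6A6 fell at −0.70 (SE 0.0495, adjusted p = 3.72e-17). In Kyse410 CHAC1, which degrades glutathione, rose by 1.68 (SE 0.143, adjusted p = 1.53e-14) and IDH1, a cytosolic NADPH-making dehydrogenase, rose by 1.18 (SE 0.0574, adjusted p = 7.15e-24). BACH2, a repressor that binds with small MAF proteins, fell at −1.24 (SE 0.121, adjusted p = 1.23e-12), and SQSTM1, the autophagy receptor that binds KEAP1, fell from 440.2 ± 11.3 to 244 ± 13.2 CPM (log2 −0.85, SE 0.0414, adjusted p = 7.24e-24).

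SQSTM1 was also the gene of that list whose responses were farthest apart, since it rose in TE10 by 0.57 (SE 0.0408, adjusted p = 4.75e-17) and so differed by −1.42 (SE 0.0581, adjusted p = 2.33e-26). MAFG, a small MAF partner of NRF2, differed by −1.17 (SE 0.0838, adjusted p = 9.73e-17), at 0.77 (SE 0.0617) in TE10 and −0.40 (SE 0.0566) in Kyse410. Among genes averaging 5 CPM or more, GPX8 and IDH1 had the largest differences toward Kyse410. They were 1.30 (SE 0.191, adjusted p = 1.63e-07) and 1.12 (SE 0.0801, adjusted p = 9.29e-17). At baseline, above the same level, MAFF and BACH2 were farthest higher in Kyse410, at 3.35 (SE 0.0599, adjusted p = 2.46e-44) and 2.65 (SE 0.151, adjusted p = 5.3e-22), and DPP3, a peptidase that binds KEAP1, and MGST2 farthest lower, at −3.10 (SE 0.103, adjusted p = 5.31e-32) and −2.32 (SE 0.153, adjusted p = 2.01e-19).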

How the data were processed

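Polyadenylated RNA of 12 libraries (3 in each of 4 groups) was measured. The authors deposited raw read counts per Ensembl gene for each library. The build was GRCh37.p13 and the tools listed were HTSeq 0.9.1, HISAT2 2.1.0, bcl2fastq 2.19 and DESeq2, per the submitters' processing notes. Sources used here do not state the annotation release or whether counting used strand. Symbols were found for 52339 of 57820 identifiers (99.03% of gene reads), and UHRF1 was matched by its identifier. Rows that name no gene stayed out of library sizes.

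All 4 groups entered 1 edgeR 4.0.16 quasi-likelihood fit (R 4.3.3) after filterByExpr and TMM scaling, with no covariate and 8 residual degrees of freedom. Adjusted p-values are Benjamini-Hochberg over all 16060 genes tested. SE is an approximation, the size of the log2 fold change divided by the square root of its quasi-likelihood F. The knockdown test within each line was run on simulated data with 200 changed genes, with the outcome not given here. The tests of the difference between the responses and of the baseline were not simulated. Alternatives were RLE scaling, no filter, only the groups compared, a replicate block, DESeq2 1.42.0, limma 3.58.1 voom, summed paralogs, leaving out each library, and, added after seeing the data, summed opposite-strand partners.

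The members and lists were chosen with earlier results of these data known. All 44 members are described. Of the further pathway genes, the 2 called genes with the largest rise and the 2 with the largest fall were named in each comparison, at a mean of at least 5 CPM; 1 of these genes is not reported here. Counting intervals are exact 95% intervals.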

Additional observations from a re-analysis of the deposited data

Results flagged for a closer look

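The knockdown response differed between the lines for 27 of the 42 tested genes, by the interaction term of edgeR's quasi-likelihood test at an adjusted p under 0.05 (38.9% of all genes tested passed it). Values are the log2 fold change in Kyse410 minus that in TE10. The response was lower in Kyse410 for OSGIN1 (−2.02), ALDH3A1 (−1.18), FTH1 (−1.10), FTL (−1.09), TXNRD1 (−1.07), TRIM16L (−0.94), HMOX1 (−0.92), ABCC1 (−0.90), AKR1B1 (−0.78), UGDH (−0.62), GPX4 (−0.61), SLC7A11 (−0.59), GCLC (−0.55), GSR (−0.38), MGST1 (−0.37), GSS (−0.36), BLVRB (−0.31), TXN (−0.30) and NQO1 (−0.18). It was higher in Kyse410 for GPX2 (1.69), CBR3 (1.29), AKR1C1 (1.23), PIR (1.0), PRDX1 (0.79), PGD (0.56), GSTM3 (0.51) and TKT (0.40).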

How the results depend on the processing

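The counts of members called stayed within 1.5 times in every alternative run. On leaving out each library in turn, members called ranged from 32 to 34 higher and 2 lower in TE10, from 19 to 22 higher and 7 to 8 lower in Kyse410, from 6 to 8 higher and 18 to 22 lower for the difference between the responses, and were 11 higher and 30 lower at baseline. Of the members' values under the alternatives, 2075 kept their direction and side of the threshold, 41 lost the threshold, 24 gained it and 28 changed sign.

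Deviations from group means had correlations of −0.012 to 0.037 between same-numbered libraries and −0.058 to 0.033 between differently numbered ones. Counting noise can hide a shared deviation, so this check cannot exclude that the numbers pair the samples. With the replicate block, members' calls changed only for GPX4 (0.08, adjusted p = 0.0433) and TALDO1 (0.12, adjusted p = 0.0494) in Kyse410, by edgeR.

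The sign changes were in values that did not pass in the fit as reported. Leaving out 1 library gave ranges in TE10 for SRXN1 from −0.024 to 0.4, GSS from −0.025 to 0.05, MAFF from −0.014 to 0.062 and MGST2 from −0.071 to 0.063. Leaving out 1 library gave ranges in Kyse410 for NFE2L2 from −0.033 to 0.008, SRXN1 from −0.341 to 0.23, GSTM3 from −0.078 to 0.125, MGST1 from −0.022 to 0.062 and AKR1C2 from −1.717 to 3.339. Leaving out 1 library gave ranges for the difference between the responses for SRXN1 from −0.524 to 0.055, GSTP1 from −0.066 to 0.023, AKR1C2 from −4.458 to 0.599 and ABCC2 from −0.072 to 0.017. Leaving out 1 library gave ranges at baseline for OSGIN1 from −0.031 to 0.131. NFE2L2 in Kyse410 was at 0.006 with RLE scaling, 0.004 with no filter, 0.016 with only the groups compared and 0.007 in DESeq2. With no filter the differences were 0.005 for GSTP1 and 0.002 for ABCC2. With AKR1C reads summed the difference of AKR1C2 was 0.929. Few reads limit AKR1C1, AKR1C2, AKR1C3, AKR1B10, GPX2 and SRXN1 in Kyse410. The causes were not tested.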
